A study of Homo sapiens with 12 samples.

Results

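The 35 genes described here make fatty acids, activate them, join them to a glycerol backbone, store the resulting triglyceride in droplets and release it again. They were selected by symbol from a written list, of 12596 annotated genes that the 2 expression tables list between them. All 35 were present in the overexpression table and 34 in the knockdown table, where G0S2 (an inhibitor of adipose triglyceride lipase) was not listed, so G0S2 was not analysed in the knockdown or in the comparison of the 2 effects. Each of the remaining 34 had a mean of at least 1 FPKM (sequenced fragments relative to transcript length and library size, so that levels can be compared between genes) and was tested in every comparison.

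RNA was sequenced from SW480, an established human colon cancer cell line, after the amount of GPD1L had been lowered or raised. GPD1L resembles the cytosolic glycerol-3-phosphate dehydrogenase GPD1, an enzyme that interconverts dihydroxyacetone phosphate and glycerol-3-phosphate. There were 12 libraries, 3 in each group: shNC (control short hairpin), shGPD1L (short hairpin against GPD1L), Vector (control vector) and OE (GPD1L overexpression). The knockdown pair and the overexpression pair each had their own control and their own table. All groups shared the SW480 background and no other treatment was named. No source used here gives the hairpin sequence, the promoter of the expression construct or the number of clones, so a difference between the lines and an effect of GPD1L cannot be told apart. Nothing in the labels says whether the 3 libraries per group are separate cultures, and p-values then measure only the spread between these libraries, which may be technical.

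Fatty acid synthesis starts in the cytosol, where ATP-citrate lyase supplies acetyl-CoA, acetyl-CoA carboxylase turns it into malonyl-CoA and fatty acid synthase builds palmitate, which elongases and desaturases then modify. Acyl-CoA synthetases activate fatty acids, glycerol-3-phosphate acyltransferases and acylglycerol-phosphate acyltransferases attach them to glycerol-3-phosphate to give phosphatidic acid, lipins remove the phosphate, and diacylglycerol acyltransferases add the last acyl chain. Triglyceride is kept in droplets coated by perilipins and is broken down in sequence by adipose triglyceride lipase, hormone-sensitive lipase and monoglyceride lipase, and the transcription factor SREBP-1 drives much of the synthetic part.

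GPD1L itself followed the labels: it measured 8.60 ± 0.55 FPKM (SD, n = 3) in shNC and 1.68 ± 0.49 in shGPD1L, and 10.7 ± 0.45 in Vector and 22.4 ± 0.37 in OE. The colon epithelial label was checked with 9 markers, of which 8 were listed in the knockdown table (all but KRT20) and 9 in the overexpression table, with summed levels between 3800 and 5439 FPKM in every library. Adipocyte markers, which share lipid storage genes with the list, summed to between 15.6 and 28.1 FPKM and came from CIDEC and PPARG, with PLIN1 listed in the overexpression table only; ADIPOQ, LEP and FABP4 were not listed. Of the markers of other cell types, 1 of 6 was listed for hepatocytes (SERPINA1, 8.46 to 27.8 FPKM), 2 of 6 for leukocytes (CD14 and CD68, summing to 17.3 to 32.0), 2 of 6 for fibroblasts (COL1A1 and PDGFRB, summing to 1.15 to 2.31) and 0 of 4 for endothelium; ALB, PTPRC and CD3E were not listed. SERPINA1, CD14 and PDGFRB fell in the overexpression, by 0.83, 0.64 and 0.41 in log2(FPKM + 1) (limma adjusted p = 0.000338, 0.00803 and 0.0199). Mean levels in Vector and OE were 26.7 and 14.6 FPKM for SERPINA1, 1.81 and 0.81 for CD14 and 1.40 and 0.80 for PDGFRB. CD14 and PDGFRB thus reached the mean of 1 FPKM needed for testing only through Vector, the group where they were higher. CD68, the more abundant leukocyte marker, was not called, at 0.15 (limma adjusted p = 0.145). The leukocyte sum was 17.3 to 19.7 FPKM in Vector and 18.4 to 19.5 in OE. The part of these markers in the lipid gene results was not tested. shGPD1L replicate 3 stood apart: it lay outside the range of the other 5 libraries of its table for 58.5% of all tested genes, against 22.5% to 33.0% for the others, and for 21 of the 34 lipid genes against 7 to 11. In bulk RNA, fewer cells of a kind and less RNA per cell cannot be told apart.

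**Figure D1:**
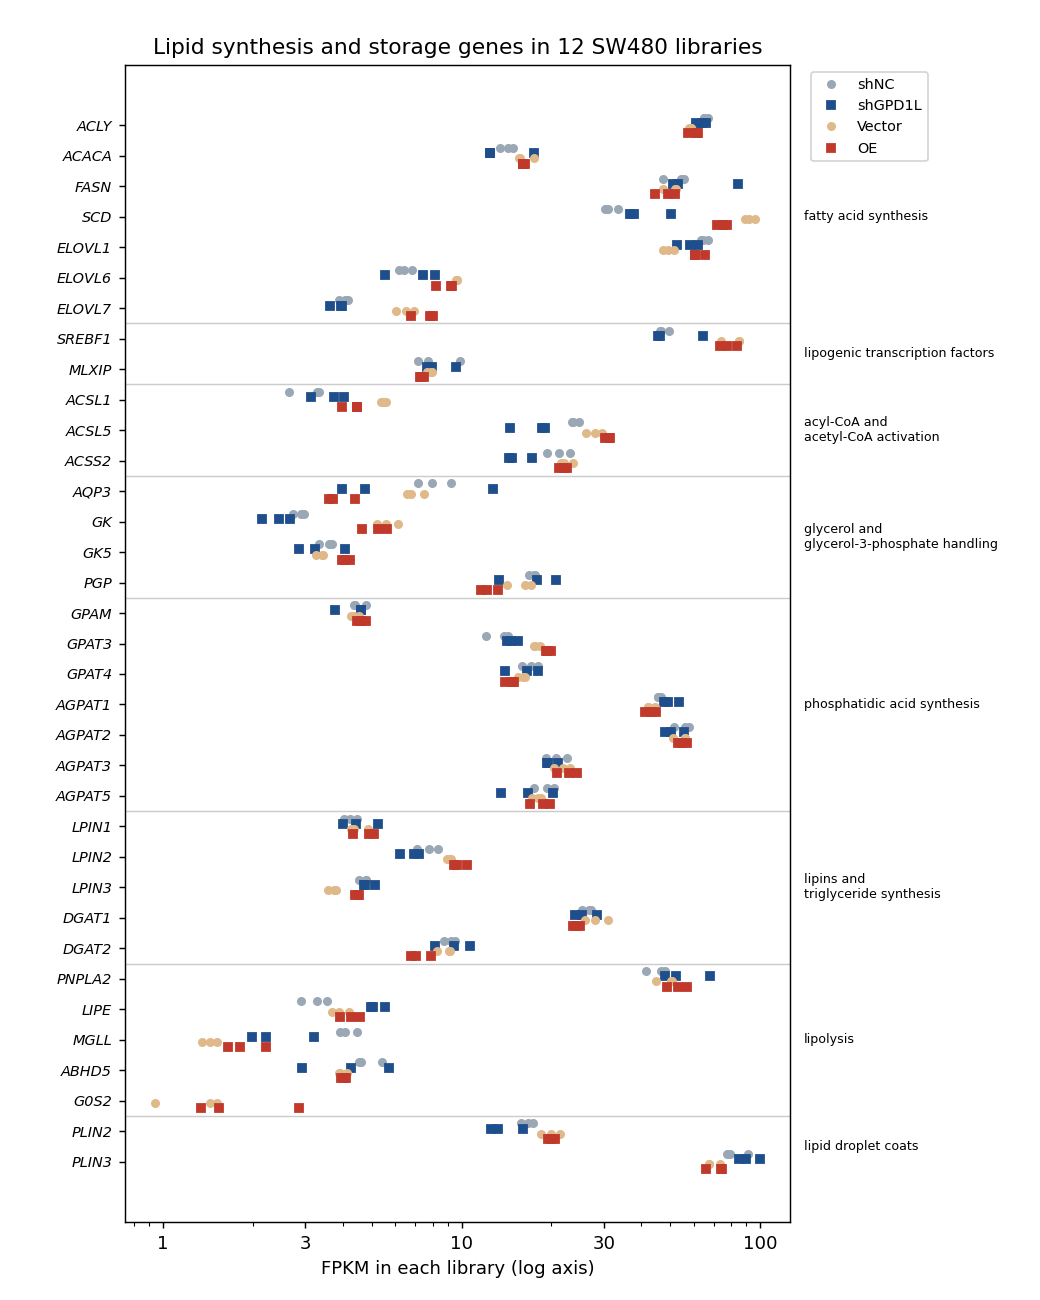
FPKM of each gene in each of the 12 libraries on a log axis, grouped by role; circles are control libraries and squares are the libraries with altered GPD1L. PLIN3, SCD, ACLY, FASN and ELOVL1 lie towards the right, G0S2 and MGLL towards the left, and SCD shows separate levels for the 2 controls.

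In fatty acid synthesis, ACLY (ATP-citrate lyase) had the highest mean level in the knockdown table, at 65.6 ± 1.37 FPKM (SD, n = 3) in shNC and 63.6 ± 2.52 in shGPD1L, and measured 58.4 ± 0.386 in Vector and 60.4 ± 2.48 in OE. In the overexpression table SCD, the desaturase that makes monounsaturated fatty acids, was higher, at 92.3 ± 3.69 FPKM in Vector. Among the transcription factors SREBF1, which encodes SREBP-1, measured 47.5 ± 1.88 FPKM in shNC, 52.1 ± 10.7 in shGPD1L, 81.3 ± 6.30 in Vector and 78.2 ± 5.09 in OE. These genes were all well above the levels of ELOVL7, an elongase of long-chain fatty acids, which ranged from 3.64 to 8.02 FPKM over the 12 libraries.

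Of the acyltransferases that make phosphatidic acid, AGPAT2 led with 55.1 ± 3.27 FPKM (SD, n = 3) in shNC, 51.5 ± 3.92 in shGPD1L, 54.3 ± 2.95 in Vector and 54.8 ± 1.88 in OE. DGAT1, which acylates diacylglycerol to triglyceride, led the last assembly steps with 26.5 ± 0.969, 25.9 ± 2.26, 28.3 ± 2.50 and 24.2 ± 0.628 FPKM in the same order of groups. PNPLA2, which encodes adipose triglyceride lipase, measured 45.3 ± 3.42, 56.0 ± 10.4, 48.6 ± 3.28 and 53.0 ± 4.16 FPKM. PLIN3, a droplet coat protein that is also found free in the cytosol, was at 82.6 ± 7.40, 91.6 ± 7.76, 69.5 ± 3.62 and 71.5 ± 4.83 FPKM. None of these 4 leading genes, nor ACLY or SREBF1, passed the test in any of the 3 comparisons below.

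In the knockdown, no lipid gene passed the threshold of a limma adjusted p under 0.05 (Benjamini-Hochberg over all genes of the table): 0 of 34 were called, where 0.592% of all 12156 tested genes were. At an unadjusted p under 0.05 there were 6 of 34 (17.6%), beside 16.3% of all genes: ACSL5, ACSS2, MGLL and PLIN2 with lower means in shGPD1L, and SCD and LIPE with higher means. Libraries of shGPD1L and shNC did not overlap for 9 of 34 (26.5%), against a background of 24.7%, 4 of them higher in shGPD1L (AGPAT1, PNPLA2, SCD and LIPE) and 5 lower (GK, MGLL, ACSS2, ACSL5 and ELOVL1). The median difference in log2(FPKM + 1) over the 34 genes was -0.04, the same to 2 decimals as that over all genes. Summed epithelial markers were between 5077 and 5439 FPKM in shNC and 4217 and 4494 in shGPD1L, and their part in these values was not tested. On this scale the change of a gene at low FPKM is understated.

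The 4 smallest adjusted p of the knockdown belonged to 2 lipases and 2 activating enzymes. LIPE (hormone-sensitive lipase; GRCh38 chr19:42401507-42427426, minus strand) measured 3.55, 2.89 and 3.27 FPKM in shNC and 4.97, 5.55 and 5.04 in shGPD1L. All 3 knockdown libraries lay above all 3 controls, and the difference in log2(FPKM + 1) was 0.55 (SE 0.10, limma adjusted p = 0.0684). MGLL (monoglyceride lipase; chr3:127689062-128052190, minus strand), the enzyme that frees the last fatty acid, measured 4.46, 3.91 and 4.07 FPKM in shNC and 1.99, 2.21 and 3.20 in shGPD1L. Here all knockdown libraries lay below all controls, with a difference of -0.59 (SE 0.14, adjusted p = 0.123).

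The other 2 genes activate fatty acids and acetate. ACSL5 (a long-chain acyl-CoA synthetase; chr10:112374018-112428380, plus strand) measured 23.5, 24.7 and 23.6 FPKM in shNC and 19.0, 18.7 and 14.5 in shGPD1L, a difference of -0.45 in log2(FPKM + 1) (SE 0.11, limma adjusted p = 0.127). ACSS2 (the acetyl-CoA synthetase of the cytosol and nucleus; chr20:34872146-34927962, plus strand) measured 23.1, 19.4 and 21.2 FPKM in shNC and 14.8, 14.4 and 17.2 in shGPD1L, a difference of -0.43 (SE 0.10, adjusted p = 0.116). In neither gene did the groups overlap. The exons of ACSL5 overlap those of ZDHHC6 on the other strand, and whether reads were assigned by strand is not stated.

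**Figure D2:**
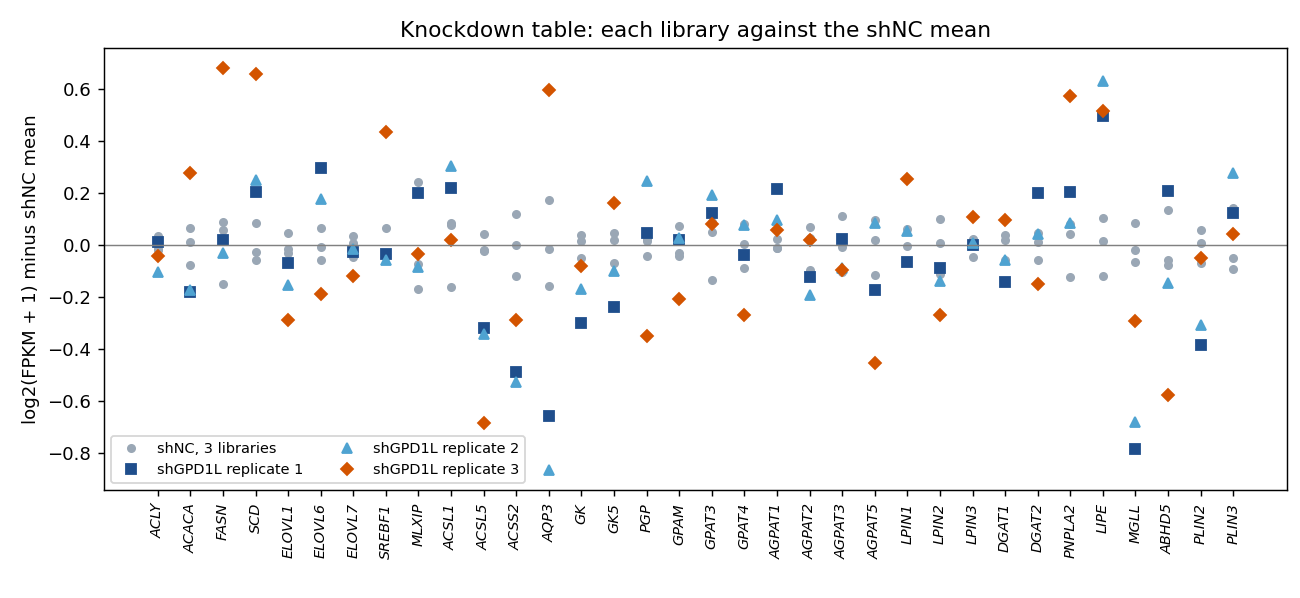
Difference of each knockdown-table library from the shNC mean in log2(FPKM + 1), for the 34 genes; grey points are the 3 shNC libraries and coloured symbols the 3 shGPD1L libraries. shGPD1L replicate 3 (diamonds) is the highest of the 6 libraries for FASN, SCD, SREBF1, AQP3 and PNPLA2, and the lowest for ACSL5, PGP, AGPAT5 and ABHD5.

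A single library carried much of the spread in the knockdown. shGPD1L replicate 3 was the highest of 6 libraries for 10 lipid genes, including FASN (fatty acid synthase), ACACA (acetyl-CoA carboxylase), SCD, SREBF1 and PNPLA2, and the lowest for 11, including ACSL5, ELOVL1 and ABHD5, the co-activator of adipose triglyceride lipase. FASN, for example, measured 53.1 and 51.3 FPKM in shGPD1L replicates 1 and 2 and 84.5 in replicate 3, beside 54.5, 55.8 and 47.1 in shNC. Only in replicate 3 was FASN above the control range.

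Without shGPD1L replicate 3, 6 of the 34 genes were called, 1 higher and 5 lower, where 5.01% of all genes were called, 1.8% higher and 3.21% lower. LIPE was higher by 0.56 in log2(FPKM + 1) (limma adjusted p = 0.0316, range over 13 alternatives 0.0316 to 0.299). The lower genes were MGLL at -0.73 (adjusted p = 0.0135, range 0.0135 to 0.413), AQP3 at -0.76 (0.0188, range 0.0188 to 0.97), ACSS2 at -0.51 (0.0218, range 0.0218 to 0.413), ACSL5 at -0.33 (0.0326, range 0.0326 to 0.42) and PLIN2 at -0.35 (0.0422, range 0.0422 to 0.55). AQP3 is a channel for water and glycerol and PLIN2 the droplet coat protein perilipin 2; in PLIN2 the libraries measured 16.7, 17.4 and 15.8 FPKM in shNC and 12.5, 13.3 and 16.1 in shGPD1L, replicate 3 alone lying within the control range. The other 2 shGPD1L libraries are then the whole group, and the part that the third plays in the result was not tested further.

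In the overexpression, 7 of 35 lipid genes passed the test, 20% of them, where 22.4% of all 12208 tested genes did. ELOVL1 and LPIN3 rose (2 of 35, where 12.2% of all genes rose), and SCD, ACSL1, AQP3, PGP and DGAT2 fell (5 of 35, where 10.3% of all genes fell). The share of lipid genes called was thus near the background, and the median difference was 0.02 in log2(FPKM + 1) for them and for all genes. Libraries of OE and Vector did not overlap for 16 of 35 (45.7%), against 41.8% of all genes. With the library totals set equal, 3418 of 12208 genes were called, 2441 higher and 977 lower. The higher share of the calls was then 71.4% instead of 54.2%. Of the 35 lipid genes, 5 were called higher and 4 lower.

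**Figure D3:**
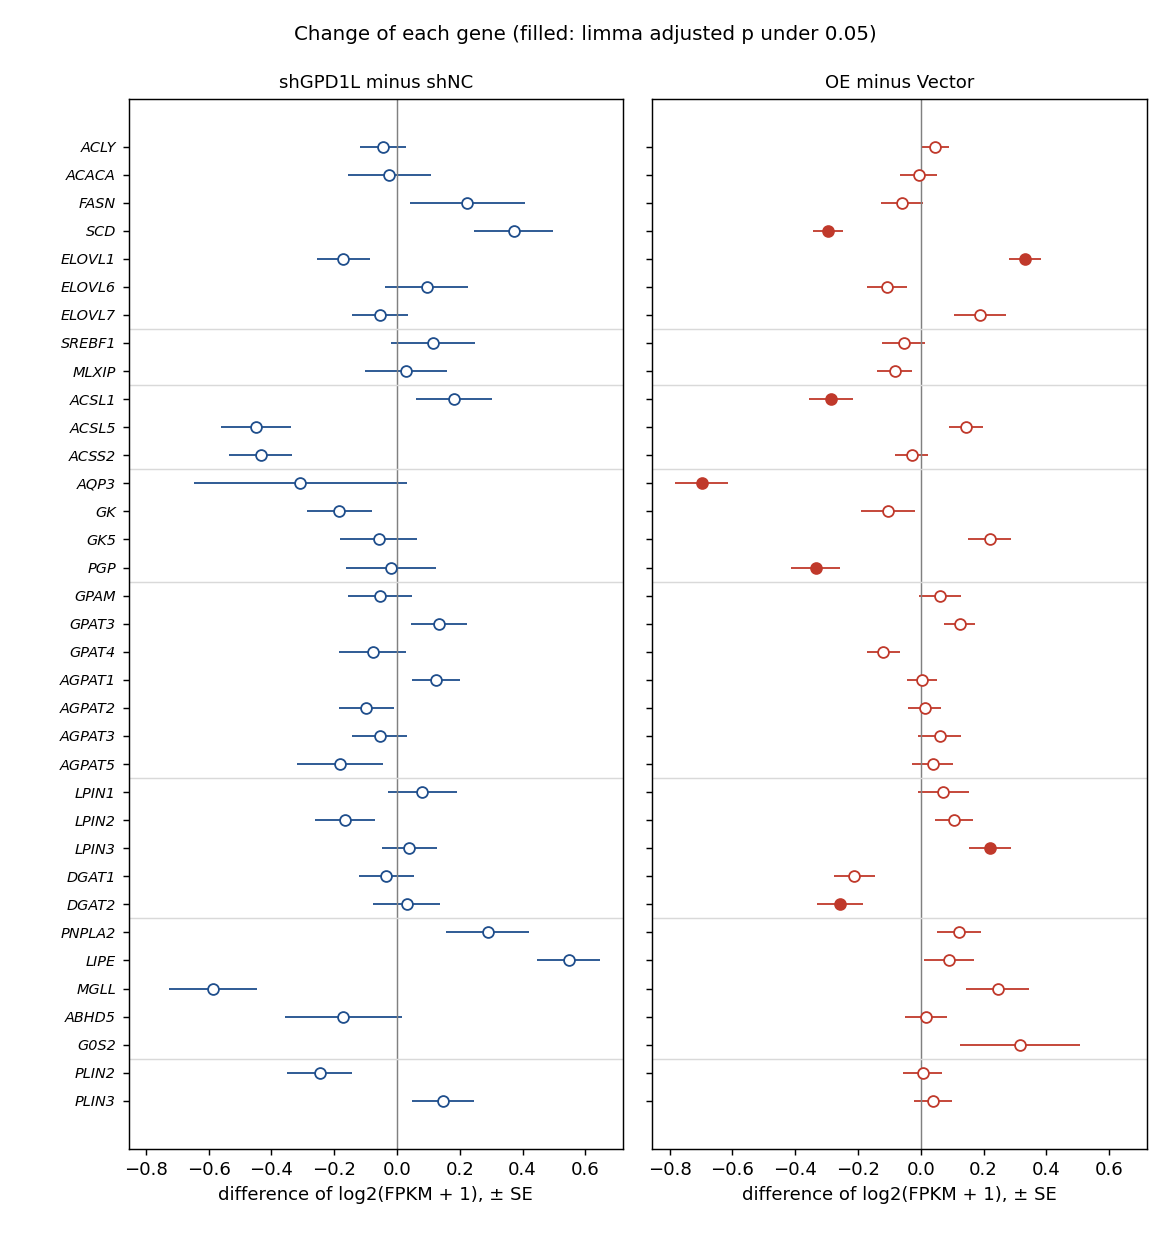
Difference in log2(FPKM + 1) with its standard error for each gene, shGPD1L minus shNC on the left and OE minus Vector on the right; filled points have a limma adjusted p under 0.05. No point is filled in the knockdown and 7 are in the overexpression, with AQP3 farthest to the left.

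In fatty acid synthesis, the desaturase SCD (chr10:100347124-100364834, plus strand) measured 91.8, 96.2 and 88.9 FPKM in Vector and 71.9, 77.6 and 75.4 in OE. Every OE library lay below every Vector library, and SCD fell by 0.30 in log2(FPKM + 1) (SE 0.05, limma adjusted p = 0.00489). ELOVL1 (chr1:43363397-43368074, minus strand), which elongates saturated and monounsaturated very-long-chain fatty acids, measured 49.1, 47.2 and 51.4 FPKM in Vector and 65.5, 60.7 and 60.7 in OE, and rose by 0.33 (SE 0.05, adjusted p = 0.00393), in 3 of 3 libraries above all controls. Both genes, and AQP3 below, were called under all 14 alternatives run. SCD has a processed pseudogene, SCDP1, that neither table lists, and how reads shared with it were counted is not stated.

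The other 5 genes of fatty acid synthesis were not called. FASN measured 51.8, 52.3 and 47.3 FPKM in Vector and 44.4, 49.1 and 51.9 in OE, which overlapped, with a difference of -0.06 (limma adjusted p = 0.557). ACACA and ACLY differed by -0.01 and 0.05 (adjusted p = 0.939 and 0.496), and the elongases ELOVL6 and ELOVL7 by -0.11 and 0.19 (adjusted p = 0.246 and 0.13). The transcription factors SREBF1 and MLXIP, the latter a glucose-responsive partner of MLX, had differences of -0.05 and -0.08 (adjusted p = 0.605 and 0.319).

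Glycerol handling held the largest difference of the 35 genes in the overexpression. AQP3 (chr9:33441154-33447633, minus strand), the glycerol channel, measured 7.50, 6.75 and 6.58 FPKM in Vector and 3.61, 3.71 and 4.39 in OE, and fell by 0.70 in log2(FPKM + 1) (SE 0.08, limma adjusted p = 0.00157), with no overlap. PGP (chr16:2211997-2214807, minus strand), a phosphatase that can remove the phosphate of glycerol-3-phosphate, measured 17.1, 16.3 and 14.2 FPKM in Vector and 11.7, 12.1 and 13.3 in OE. It fell by 0.34 (SE 0.08, adjusted p = 0.0201), and the call was lost without Vector replicate 1 (0.0641), Vector replicate 2 (0.0691), OE replicate 1 (0.0606) or OE replicate 2 (0.0581), over a range of 0.0104 to 0.0691 in 14 alternatives. The glycerol kinase GK and its relative GK5 were not called, at -0.10 (adjusted p = 0.417) and 0.22 (adjusted p = 0.0521).

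Among the acyl-CoA synthetases, ACSL1 (chr4:184755595-184826818, minus strand) measured 5.39, 5.56 and 5.47 FPKM in Vector and 4.47, 4.48 and 3.99 in OE, without overlap. It fell by 0.29 in log2(FPKM + 1) (SE 0.07, limma adjusted p = 0.022); the adjusted p was 0.0547, 0.0705 and 0.0542 without Vector replicate 1, 2 and 3 and 0.0628 without OE replicate 3, the range over 13 alternatives being 0.0167 to 0.0705. ACSL5, at 29.5, 26.2 and 28.0 FPKM in Vector and 31.4, 31.1 and 30.2 in OE, was not called (0.14, adjusted p = 0.0912), although no OE library fell into the Vector range. ACSS2 measured 22.0, 21.6 and 23.5 FPKM in Vector and 21.3, 22.0 and 22.5 in OE, with a difference of -0.03 (adjusted p = 0.73).

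None of the 7 acyltransferases of phosphatidic acid synthesis was called in the overexpression, with differences from -0.12 for GPAT4 (limma adjusted p = 0.132) to 0.12 for GPAT3 (adjusted p = 0.101), which both act on glycerol-3-phosphate. In the next steps LPIN3 (chr20:41340920-41360582, plus strand), a phosphatidic acid phosphatase, measured 3.79, 3.73 and 3.56 FPKM in Vector and 4.52, 4.38 and 4.50 in OE and rose by 0.22 (SE 0.07, adjusted p = 0.0469). This call was lost without any one of the 6 libraries: the adjusted p was 0.0876, 0.102 and 0.115 without Vector replicate 1, 2 and 3, and 0.104, 0.0891 and 0.105 without OE replicate 1, 2 and 3, in a range of 0.0223 to 0.115 over 13 alternatives. It was lost too with median-of-ratios scaling (0.0551) and with no filter on low values (0.0517).

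DGAT2 (chr11:75759512-75801535, plus strand), the second diacylglycerol acyltransferase and unrelated in sequence to DGAT1, measured 9.05, 9.17 and 8.30 FPKM in Vector and 6.80, 7.91 and 7.03 in OE. The groups did not overlap, and DGAT2 fell by 0.26 in log2(FPKM + 1) (SE 0.07, limma adjusted p = 0.0381). The adjusted p was 0.103 and 0.114 without Vector replicate 1 and 2, 0.104 and 0.0959 without OE replicate 1 and 3 and 0.0633 with library totals set equal, in a range of 0.0272 to 0.114 over 14 alternatives. DGAT1 did not overlap between the groups either and had a difference of -0.21 (adjusted p = 0.0514). Its exons overlap those of HSF1 on the other strand.

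None of the 5 lipolysis genes and neither perilipin was called in the overexpression. MGLL measured 1.43, 1.51 and 1.35 FPKM in Vector and 1.65, 1.81 and 2.21 in OE, without overlap (0.24, SE 0.10, limma adjusted p = 0.113), and LIPE 4.21, 3.68 and 3.89 in Vector and 4.25, 3.92 and 4.56 in OE, which overlapped (0.09, adjusted p = 0.452). G0S2 measured 1.51, 1.44 and 0.94 FPKM in Vector and 1.54, 1.34 and 2.85 in OE (0.32, adjusted p = 0.264), with OE replicate 3 the highest library. PLIN2 and PLIN3 differed by 0.01 and 0.04 (adjusted p = 0.954 and 0.671).

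Of the 7 genes called in the overexpression, 4 have a single start in the RefSeq promoter table (GRCh38.p14), and the bases before it are shown because these genes moved in different directions: SCD, AQP3 and PGP fell and ELOVL1 rose. Each line gives the bases 5′ to 3′ on the gene's strand from 250 bases before the RefSeq start. For SCD, ELOVL1 and AQP3 it stops where the GENCODE 29 gene model begins. For PGP it stops at the RefSeq start, which lies before the gene model. Capitals mark CCAAT, the letters bound by NF-Y, or ATTGG, the same motif on the other strand. The intervals are chr10:100346983-100347123 (plus) for SCD, chr1:43368075-43368261 (minus) for ELOVL1, chr9:33447634-33447843 (minus) for AQP3 and chr16:2214841-2215090 (minus) for PGP.
SCD: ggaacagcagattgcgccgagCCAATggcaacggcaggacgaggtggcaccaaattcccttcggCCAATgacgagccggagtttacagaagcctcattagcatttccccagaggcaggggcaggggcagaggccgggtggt
ELOVL1: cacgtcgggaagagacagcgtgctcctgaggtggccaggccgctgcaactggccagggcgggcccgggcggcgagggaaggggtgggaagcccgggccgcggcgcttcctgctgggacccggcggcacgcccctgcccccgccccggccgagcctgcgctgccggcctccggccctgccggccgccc
AQP3: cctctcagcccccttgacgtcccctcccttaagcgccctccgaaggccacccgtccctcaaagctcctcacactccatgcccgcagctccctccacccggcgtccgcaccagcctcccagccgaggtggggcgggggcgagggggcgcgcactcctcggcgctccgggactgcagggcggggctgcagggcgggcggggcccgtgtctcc
PGP: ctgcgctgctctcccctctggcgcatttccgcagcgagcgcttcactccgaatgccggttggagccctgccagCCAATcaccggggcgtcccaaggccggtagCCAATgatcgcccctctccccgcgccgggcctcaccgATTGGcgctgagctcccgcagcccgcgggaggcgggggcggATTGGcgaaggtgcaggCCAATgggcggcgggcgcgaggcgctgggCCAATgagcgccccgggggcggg
SCD holds CCAAT at positions -229 and -186 from its start, and PGP 6 matches, 4 of CCAAT and 2 of ATTGG. ELOVL1 holds one at -65, which runs into the gene model and is not shown, and AQP3 none. Over windows of 250 bases before and 50 after the start, both strands, 19 of 48 promoters of 27 matched lipid genes held CCAAT (39.6%), beside 34.6% of all 35116 promoters. TCACNCCAC, a sterol regulatory element bound by SREBP, was found in 2 of 48 (4.17%, ACSL1 and PNPLA2) against 1.13% of all, and CACGTG, an E-box, in 2 of 48 (LPIN2 and PLIN2) against 7.26%. These are letter matches and not binding sites.

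Whether raising and lowering GPD1L had different effects was tested directly, as OE minus Vector less shGPD1L minus shNC over all 12 libraries. The 2 effects differed for 7 of 34 lipid genes (20.6%), where 14.1% of 11385 tested genes did. In 4 of 34 the overexpression effect was the more positive (ELOVL1, ACSL5, ACSS2 and MGLL; 9.09% of all genes) and in 3 of 34 the more negative (SCD, ACSL1 and LIPE; 4.97% of all genes). At an unadjusted p under 0.05 the share was 26.5% beside 29.6% of all genes, and the median was 0.00 beside 0.06. Without shGPD1L replicate 3, 12 of 34 were called, where 22.8% of all genes were, which added GK5, PLIN2, ELOVL6, PGP and DGAT2.

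**Figure D4:**
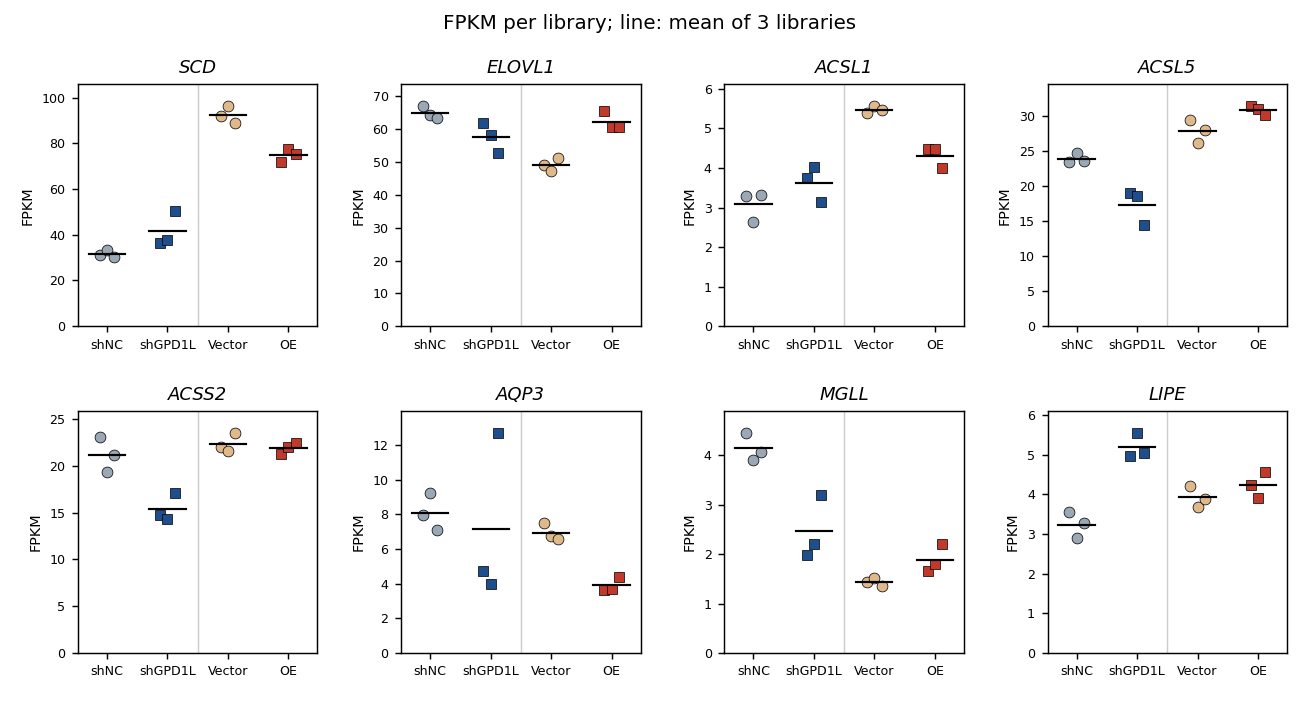
FPKM in each library, with the group mean as a line, for 8 genes; each axis starts at 0 and the grey line separates the knockdown table from the overexpression table. SCD is higher in both OE and Vector than in either knockdown-table group, and AQP3 in shGPD1L replicate 3 lies far above the other 2 knockdown libraries.

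MGLL and ACSL5 had the 2 largest positive differences. For MGLL the knockdown mean went from 4.15 ± 0.28 FPKM (SD, n = 3) to 2.46 ± 0.645 and the overexpression mean from 1.43 ± 0.080 to 1.89 ± 0.288, so the effects differed by 0.83 in log2(FPKM + 1) (SE 0.17, limma adjusted p = 0.0103). For ACSL5 the means went from 23.95 ± 0.664 to 17.4 ± 2.51 and from 27.9 ± 1.65 to 30.9 ± 0.656, a difference of effects of 0.59 (SE 0.13, adjusted p = 0.0112). Neither effect alone passed the test for either gene, and both differences were called under every alternative run, 19 for MGLL and 20 for ACSL5.

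ELOVL1 measured 67.0, 64.2 and 63.4 FPKM in shNC and 61.8, 58.2 and 52.9 in shGPD1L, a knockdown difference of -0.17 (limma adjusted p = 0.361), and its 2 effects differed by 0.50 (SE 0.09, adjusted p = 0.00707), called under all 20 alternatives. SCD, at 31.0, 33.5 and 30.3 FPKM in shNC and 36.6, 37.7 and 50.5 in shGPD1L, had a knockdown difference of 0.37 (SE 0.13, adjusted p = 0.221). Its effects differed by -0.67 (SE 0.14, adjusted p = 0.0117). In both genes the 2 effects had opposite signs and the groups overlapped in neither table.

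The last 3 differences depended more on single libraries. LIPE had an effect difference of -0.46 (SE 0.12, limma adjusted p = 0.0273; range over 19 alternatives 0.015 to 0.0868), which missed the threshold without shNC replicate 2 (0.06) or 3 (0.0543), Vector replicate 1 (0.0679) or 3 (0.052), or OE replicate 1 (0.0602) or 2 (0.0681). ACSS2 differed by 0.41 (SE 0.11, adjusted p = 0.0346; range 0.00516 to 0.0916), and missed it without shNC replicate 1 (0.0806) or 3 (0.0705), shGPD1L replicate 1 (0.0664) or 2 (0.0577), Vector replicate 1 (0.0752) or 2 (0.0858), or any OE library (0.0617, 0.0718 and 0.0717 for replicates 1 to 3), and with median-of-ratios scaling (0.0851) or quantile normalization (0.0916).

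ACSL1, which measured 3.29, 2.64 and 3.32 FPKM in shNC and 3.74, 4.03 and 3.13 in shGPD1L with overlap, differed by -0.47 between the effects (SE 0.13, limma adjusted p = 0.038; range over 19 alternatives 0.00861 to 0.112). Of the libraries left out in turn, only without shGPD1L replicate 3 was it called (0.00861); leaving out another gave 0.0503, 0.0768 and 0.0511 for shNC replicates 1 to 3, 0.0676 and 0.0643 for shGPD1L replicates 1 and 2, 0.0699, 0.0845 and 0.0714 for Vector replicates 1 to 3, and 0.0672, 0.0628 and 0.0821 for OE replicates 1 to 3. AQP3, PGP, DGAT2 and LPIN3, called in the overexpression, were not called in the difference. AQP3 measured 7.96, 9.21 and 7.12 FPKM in shNC and 4.75, 3.97 and 12.7 in shGPD1L, so 2 knockdown libraries lay below the controls and 1 above, and its effects differed by -0.39 (adjusted p = 0.546).

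PGP measured 16.8, 17.5 and 17.6 FPKM in shNC and 17.9, 20.7 and 13.4 in shGPD1L, with shGPD1L libraries on both sides of the controls, a knockdown difference of -0.02 (limma adjusted p = 0.968) and a difference of effects of -0.32 (adjusted p = 0.252). DGAT2 measured 9.48, 8.76 and 9.24 FPKM in shNC and 10.7, 9.45 and 8.15 in shGPD1L, and LPIN3 4.78, 4.52 and 4.79 in shNC and 4.70, 4.73 and 5.14 in shGPD1L. Both overlapped, with differences of effects of -0.29 (adjusted p = 0.158) and 0.18 (adjusted p = 0.219). For these genes an overexpression call is therefore not shown to differ from the knockdown.

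Some lipid genes differed in level between the 2 control groups, although the tables may have been scaled separately and no test was made across them. The Vector mean was past 1.5-fold of the shNC mean, in either direction, for 6 of 34 lipid genes, where 12.6% of all genes were. Such differences were thus not particular to the lipid genes. SCD was 2.92 times as high in Vector, GK 1.96 times, ACSL1 1.78 times, SREBF1 1.71 times and ELOVL7 1.61 times, and MGLL was at 0.345 of its shNC level. The median ratio was 1.01 for the lipid genes and 0.99 for all genes. SCD relative to FASN was 0.604 ± 0.037 in shNC, 0.674 ± 0.070 in shGPD1L, 1.83 ± 0.053 in Vector and 1.55 ± 0.088 in OE (SD, n = 3).

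**Figure D5:**
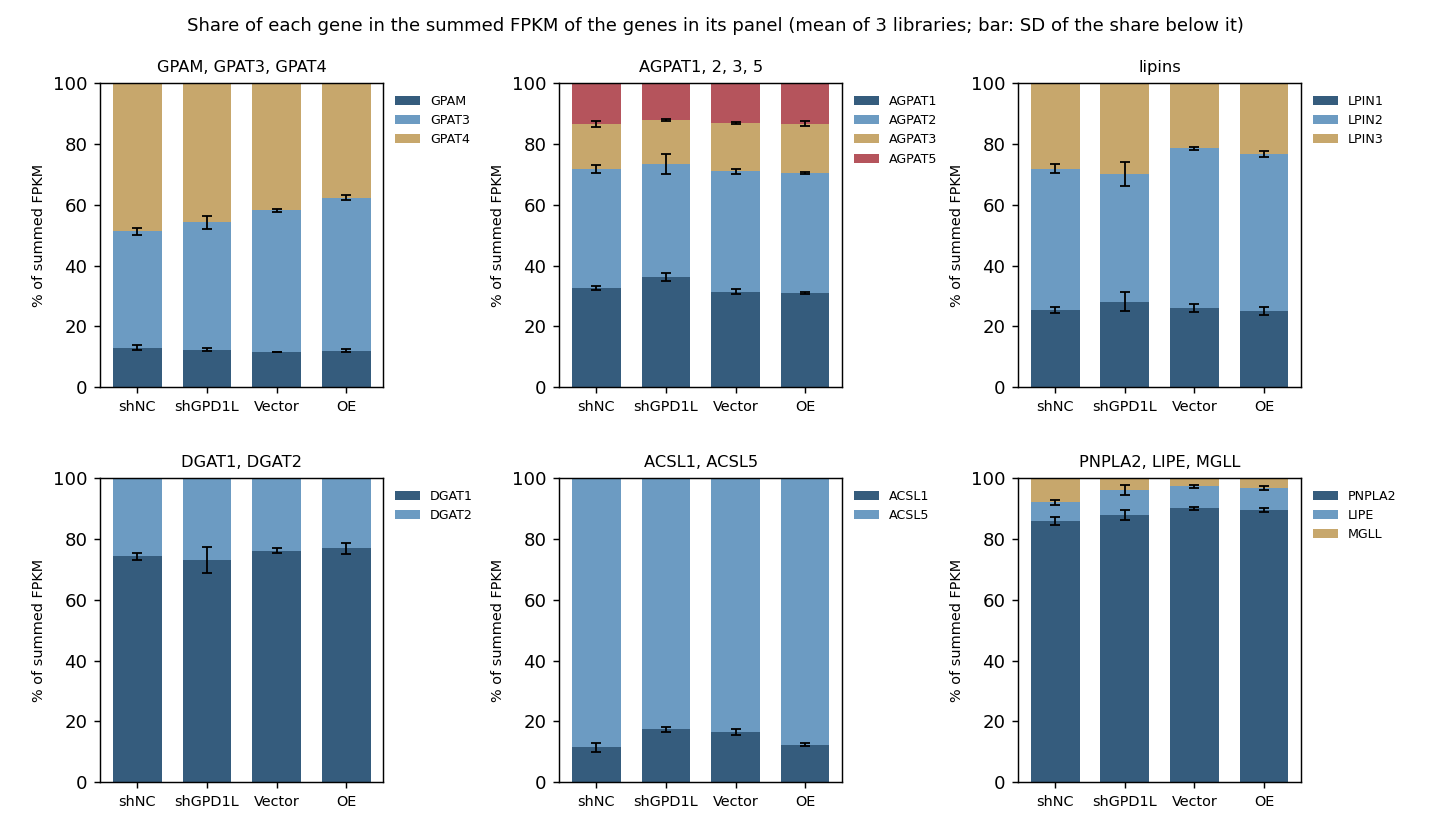
Mean share of each gene in the summed FPKM of the listed genes in its panel, in percent, for the 4 groups; error bars are the SD of the share below them over 3 libraries. The lipases PNPLA2, LIPE and MGLL act in sequence and do not share a step. GPAT3 takes 38.3% in shNC and 42.0% in shGPD1L, and 46.8% in Vector and 50.4% in OE. PNPLA2 is above 85% in all groups.

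Enzymes of related function were compared by their shares of the summed FPKM of the listed genes in their set. Most sets hold enzymes of the same step, but the lipases PNPLA2, LIPE and MGLL act in sequence. For the first acylation of glycerol-3-phosphate, GPAT4 held 48.8% ± 1.33 (SD, n = 3) in shNC, 45.8% ± 1.87 in shGPD1L, 41.8% ± 0.486 in Vector and 37.6% ± 0.672 in OE. GPAT3 held 38.3% ± 1.12, 42.0% ± 2.19, 46.8% ± 0.518 and 50.4% ± 0.773, so the order of the 2 enzymes differed between the tables. For the second acylation AGPAT2 held between 37.2% and 39.7% in the 4 groups and AGPAT1 between 30.9% and 36.1%, and DGAT1 held between 73.2% and 77.0% of the DGAT1 and DGAT2 sum.

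GK held 44.7% ± 2.07 (SD, n = 3) of the sum with GK5 in shNC and 41.8% ± 2.00 in shGPD1L, and 62.5% ± 2.50 in Vector and 55.8% ± 2.16 in OE. Among the 3 lipases, MGLL held 7.89% ± 0.640 in shNC and 3.84% ± 0.436 in shGPD1L, and 2.65% ± 0.103 in Vector and 3.19% ± 0.244 in OE. PNPLA2 held between 85.9% and 90.1% throughout. ACSL5 held 88.6% ± 1.54 of the sum with ACSL1 in shNC, 82.7% ± 0.748 in shGPD1L, 83.6% ± 1.03 in Vector and 87.8% ± 0.488 in OE. These shares are descriptions of the same values and were not tested.

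Other genes of the same pathways were counted from lists that do not hold the 35. In the knockdown 0 were called in each list by limma, where 0.592% of all genes were. An unadjusted p under 0.05 was reached by 16.3% of all genes. It was reached by 4 of 18 in fatty acid synthesis and desaturation, 1 of 12 in SREBP and LXR control and 1 of 11 in fatty acid uptake and activation. In glycerolipid and phospholipid assembly 3 of 25 reached it, and in droplets and neutral lipid breakdown 1 of 12. In the overexpression, where 12.2% of all genes rose and 10.3% fell, 2 of 18 other genes of fatty acid synthesis and desaturation rose and 5 fell, with a median of -0.05 beside 0.02 for all genes. FADS2, the delta-6 desaturase, rose by 0.33 (adjusted p = 0.0129) and ELOVL3, a very-long-chain elongase, fell by 0.46 (adjusted p = 0.0407). ELOVL3 was near the floor, with a mean of 1.07 in log2(FPKM + 1) over the OE and Vector libraries. It passed the filter at 1 FPKM only through Vector, the group where it was higher. Of 12 genes of SREBP and LXR control 1 rose and 2 fell: INSIG1, which holds SREBP in the endoplasmic reticulum, fell by 0.45 (adjusted p = 0.00617), and of the 2 LXR genes NR1H2 (LXR beta) rose by 0.28 (adjusted p = 0.0099) while NR1H3 (LXR alpha), named after its value was seen, fell by 0.20 (adjusted p = 0.0203).

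In fatty acid uptake and activation 2 of 12 rose and 3 fell in the overexpression, beside 12.2% and 10.3% of all genes. Among the 3 were FABP1, a fatty acid binding protein of intestine and liver, which fell by 1.19 in log2(FPKM + 1) (limma adjusted p = 0.00358), and ACSL6, an acyl-CoA synthetase, which fell by 0.69 (adjusted p = 0.00182). FABP1 was near the floor, with a mean of 0.97 in log2(FPKM + 1) over the OE and Vector libraries. It passed the filter at 1 FPKM only through Vector, the group where it was higher. The 2 that rose, named after their values were seen, were the acyl-CoA synthetase ACSL4 by 0.26 (adjusted p = 0.0104) and the fatty acid transport protein SLC27A4 by 0.20 (adjusted p = 0.0317). Of 25 other genes of glycerolipid and phospholipid assembly 1 rose and 3 fell, including PLPP3, a lipid phosphate phosphatase, by 0.40 (adjusted p = 0.0178) and PCYT2, an enzyme of phosphatidylethanolamine synthesis, by 0.34 (adjusted p = 0.0213). Of 13 genes of droplets and neutral lipid breakdown 1 rose and 2 fell, including the droplet fusion protein CIDEC by 0.54 (adjusted p = 0.00575) and the monoglyceride hydrolase ABHD6 by 0.26 (adjusted p = 0.0379).

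For comparison, 7 of 18 genes of mitochondrial fatty acid oxidation fell in the overexpression and none rose, with a median of -0.17 beside 0.02 for all genes, and 7 of 22 genes of cholesterol synthesis and uptake fell and 1 rose, with a median of -0.13. Over all genes 10.3% fell and 12.2% rose. HADH, a beta-oxidation dehydrogenase, fell by 0.41 (limma adjusted p = 0.00158) and SLC25A20, the carnitine carrier, by 0.37 (adjusted p = 0.0251). LSS, an enzyme of sterol synthesis, fell by 0.42 (adjusted p = 0.0025). Differentiation markers of colon epithelium moved in the same comparison: 5 of 8 tested fell, CDX1, CDX2, VIL1, CDH1 and EPCAM, and 3 keratins, KRT8, KRT18 and KRT19, rose. KRT20, with a mean under 1 FPKM, was not tested. It measured 1.23 to 1.32 FPKM in Vector and 0.37 to 0.63 in OE. The 9 listed markers summed to between 3800 and 3909 FPKM in Vector and 4151 and 4282 in OE. Most of this sum came from KRT8, KRT18 and KRT19. The part of the markers in the lipid gene results was not tested.

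In the difference of effects, where 9.09% of all genes were more positive in the overexpression and 4.97% more negative, 2 of 18 other genes of fatty acid synthesis and desaturation were called, both more positive: FADS2 by 0.68 (limma adjusted p = 0.00782) and HACD2, a dehydratase of elongation, by 0.34 (adjusted p = 0.0294). In fatty acid uptake and activation 1 of 11 was more positive and 2 more negative, the latter being ACSL6 and the acyl-CoA binding protein DBI, each by -0.53 (adjusted p = 0.017 and 0.00741). In glycerolipid and phospholipid assembly 3 of 25 were more positive and 1 more negative, with PCYT2 at -0.61 (adjusted p = 0.0247) and LCLAT1, an acyltransferase, at 0.41 (adjusted p = 0.0224). No gene was called of 12 in SREBP and LXR control, with 3 at an unadjusted p under 0.05, or of 13 in droplets and neutral lipid breakdown, with 1. Of all genes 29.6% had an unadjusted p under 0.05. The comparison lists gave 4 of 18 more negative in mitochondrial fatty acid oxidation, led by SLC25A20 at -0.57 (adjusted p = 0.041) and HADH at -0.42 (adjusted p = 0.00828), and 5 of 22 more negative in cholesterol synthesis and uptake, among them LSS at -0.62 (adjusted p = 0.00137).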

How the data were processed

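RNA was isolated with Trizol and captured on oligo(dT) beads, and cDNA was primed with random hexamers, per the labels' protocols; whether strand was kept is not stated. The authors deposited FPKM values in 2 tables, 1 for each comparison. For the authors' steps, the submitters' processing notes list HISAT2, StringTie, DESeq2 and the build GRCh38, without versions or roles; filters were not given in the sources used here. The FPKM hold no read counts, so the depth is unknown and no interval for counting error is given. Listed FPKM summed to 435139.85 to 444793.94 per library in the knockdown table and 421714.19 to 438966.58 in the overexpression table. Libraries were grouped by title, because in the genotype labels the number inside the gene name changes from replicate to replicate.

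Genes whose mean over the fitted libraries reached 1 FPKM were compared as log2(FPKM + 1) with limma 3.58.1 (R 4.3.3, eBayes with an intensity trend, two-sided, Benjamini-Hochberg over all genes tested, called under 0.05), within each table and, for the difference of the 2 effects, over 4 group means. The procedure was tested on simulated data. Coordinates and exon overlaps are from GENCODE 29, in which all 12388 and 12411 annotated identifiers were found. Promoters are from RefSeq. The 35 genes, the other lists and the markers were chosen with earlier results of these data known. Genes called in a comparison are given with all library values, as is the leading gene of each role by its means, with at most 2 called genes per other list and comparison. Alternatives were a pseudocount of 0.1, no filter or one at 5 FPKM, median-of-ratios scaling, equal library totals, no trend, quantile normalization, a replicate block and leaving out each library. Figures were drawn with matplotlib 3.10.9.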

Additional observations from a re-analysis of the deposited data

Results flagged for a closer look

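For 7 lipid genes the effect of GPD1L overexpression differed from that of its knockdown by the limma test of the difference itself (adjusted p under 0.05), which is why they are listed here. On the log2(FPKM + 1) scale, overexpression effect minus knockdown effect was 0.83 for MGLL, 0.59 for ACSL5, 0.50 for ELOVL1 and 0.41 for ACSS2, and -0.67 for SCD, -0.47 for ACSL1 and -0.46 for LIPE. The background was 14.1% of all genes. Each effect was measured against its own control line, and SCD, ACSL1 and MGLL already differed by more than 1.5-fold between those controls. The Vector mean was 1.06 times the shNC mean for ACSS2, 1.17 for ACSL5, 1.21 for LIPE and 0.76 for ELOVL1. A dependence on the starting level cannot be told apart from one on the direction of the GPD1L change. The knockdown and overexpression effects had the same sign for LIPE (0.55 and 0.09) and ACSS2 (-0.43 and -0.03), and opposite signs for the other genes.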

How the results depend on the processing

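No log2 change of a lipid gene that was called turned its sign under any alternative. In the knockdown 0 lipid genes were called, and 0 to 6 when each library was left out (0 to 1 higher, 0 to 5 lower); calls over all genes went from 72 to 25 with quantile normalization, to 3 with a replicate block and to 0 to 609 with a library left out, the 609 and the 6 both without shGPD1L replicate 3. In the overexpression the 7 calls became 4 with a replicate block and 3 to 6 with a library left out (3 without Vector replicate 1 or 2, 4 without OE replicate 1 or 3). The 2 higher calls became 1 without a filter, with a filter at 5 FPKM, with median-of-ratios scaling, with the block and with any library left out, and 5 with equal library totals. Higher calls over all genes went from 1484 to 2441 with equal library totals. The 5 lower calls became 3 with the block and 2 to 5 with a library left out. The calls lost with the block were those of PGP, DGAT2 and LPIN3. All-gene calls of 2740 were 1550 to 1980 with a library left out. In the difference of effects the 7 calls became 4 with a filter at 5 FPKM, 3 with the replicate block and 4 to 12 with a library left out (4 without shNC replicate 3, Vector replicate 1 or OE replicate 1 or 2), and the 3 lower calls became 1, 0 and 1 to 6. Here the block removed the calls of SCD, ACSL1, ACSS2 and LIPE. All-gene calls of 1601 became 474 with the block and 796 to 2593 with a library left out. Leaving out a library removes a sample, and the filter at 5 FPKM removes genes from the test. With that filter 26 lipid genes were tested in the overexpression, without LPIN3 and ACSL1, and DGAT1 was then called. In the difference of effects 25 were tested, without MGLL, ACSL1 and LIPE. Other than these removals, the cause of the changes was not tested.

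The share of calls that were higher was 54.2% in the overexpression, 71.4% with equal library totals and 46.1% with median-of-ratios scaling; it was 64.6% in the difference of effects and 44.2% with median-of-ratios scaling, and 19.4% in the knockdown and 32% with quantile normalization. Same-numbered libraries did not deviate together (correlations of -0.02, -0.18 and -0.16 in the knockdown and 0.02, -0.06 and -0.04 in the overexpression). No pairing by number was thus seen, but with 3 libraries per group these values cannot show that the libraries were unpaired. With the block the difference of effects of SCD had a limma adjusted p of 0.0507. The unknown depth limits what can be said of genes near 1 FPKM, such as G0S2 and MGLL.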
